A study of Mus musculus with 6 samples.

Results

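Semaphorins, plexins, neuropilins, ephrins, Eph receptors, Slits and Robos are cell-surface and secreted guidance molecules. The set was taken by gene name from a deposited table of 55421 genes: protein-coding genes of the semaphorin classes 3 to 7, the plexins A to D, the ephrins and Eph receptors of the A and B types, Nrp1, Nrp2, Robo1, Robo2, Slit1 and Slit2. It held 57 of the 21926 protein-coding genes, namely 20 semaphorins, 9 plexins, 2 neuropilins, 9 EphA and 5 EphB receptors, 5 ephrin-A and 3 ephrin-B ligands, 2 Slits and 2 Robos.

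RNA was sequenced from microglia, the resident macrophages of the brain, which had been sorted by flow cytometry on CD45 and CD11b after digestion of the brain and removal of myelin. The mice were C57BL/6 animals of 4 to 5 weeks. All of them carried floxed alleles of Qk, the gene of the RNA-binding protein QKI: the 3 libraries labelled WT came from QKIfl/fl mice without a Cre, and the 3 labelled KO from mice (QKIflfl; Cx3cr1cre-ert2) that also carried a Cre-estrogen receptor fusion in Cx3cr1, a gene of microglia and other myeloid cells. The Cre allele and the intended loss of QKI therefore cannot be told apart, the labels name no tamoxifen, and nothing in them ties a library to an animal of its own; p-values thus speak to the spread among these 6 libraries.

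Semaphorins signal through plexins, whose intracellular domain acts on small GTPases and thereby on the actin skeleton and on integrins; most secreted class 3 semaphorins bind a neuropilin that pairs with a plexin. Ephrins stay on the cell that makes them and bind Eph receptor tyrosine kinases on the neighbouring cell, and both cells can receive a signal. Slits are secreted repellents bound by Robo receptors. These systems were first known from growing axons and vessels, and several of them also act in immune cells, where Sema4d, Sema4a, plexin-A1 and plexin-B2 steer contacts between cells and cell movement.

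The deposited values are reads scaled by the authors to the same total in each library, here called normalised reads; the whole reads behind them numbered 56988261 to 77199936 per library. Qk itself was higher in the KO-labelled libraries, at 24768 ± 1073 normalised reads against 11632 ± 800 (SD, n = 3 each; adjusted p = 2.45e-06, limma). Cx3cr1, the locus that carries the Cre, was 4.22-fold lower in them, at 58308 ± 4848 against 246161 ± 11084 (limma adjusted p = 1.81e-07). The Qk level was higher where a loss of QKI was intended, but it is a value for the whole gene. It cannot show whether the floxed part was deleted, which needs reads per exon. Directions are therefore given as those of the KO-labelled libraries. All 12 microglial marker genes, Cx3cr1 among them, were detected. Their summed level was 1646080 to 1712410 in the WT-labelled libraries and 798207 to 908038 in the KO-labelled ones. Of the 12, 10 were lower (limma adjusted p under 0.05), where 32.2% of all genes with a mean above 100 normalised reads were lower. Library WT C stood apart from WT A and WT B in markers of several other cell types, with 4.64 times their mean of summed neutrophil markers, so values without it are given where they change a call or a size. In bulk libraries, fewer cells of a kind and less RNA per cell cannot be told apart. The median log2 fold change of all genes tested was -0.15 with the deposited scaling and -0.02 with trimmed-mean (TMM) factors. A small difference is therefore to be read against that shift. With TMM factors 9 of the 12 microglial markers were lower and 2 higher, where 15.4% of all genes were called in each direction.

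Most of the abundant guidance genes differed between the groups, in both directions. Of the 57 genes, 52 had a mean above 1 normalised read and were tested, and 29 passed an adjusted p of 0.05 with limma: 6 were higher and 23 lower in the KO-labelled libraries. Over all 22472 genes tested, 34.6% were called, 11.3% higher and 23.4% lower. With the column letter as a block the guidance genes called were 7 higher and 25 lower, and 13.4% and 28.3% of all genes. With TMM factors they were 6 higher and 20 lower, and 15.4% of all genes in each direction. The median log2 fold change of the tested guidance genes was -0.97, and -0.95 with the 2 genes absent from every KO-labelled library set at their detection bound. These counts hold 2 unlike groups. The 22 genes with a mean above 100 normalised reads gave 6 higher, 12 lower and 4 not called, that is 81.8% called, where 47.8% of all genes above that level were called (15.7% higher and 32.2% lower). Their median log2 fold change was -0.32 against -0.13 for all genes above that level, and the libraries of the groups did not overlap for 18 of them (81.8%), where 60.2% of all such genes did not overlap.

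The other 35 genes had a mean of 100 normalised reads or less. Among them 30 were tested, 11 were lower and 0 higher, at a median of -1.08 (-1.04 with the same 2 genes at their bound); 20.6% of all genes at that level were called, 6.56% higher and 14% lower. No gene of this level was called higher by limma with TMM factors, by edgeR or with WT C left out, and at an unadjusted limma p under 0.05 the higher genes of this level numbered 0. With no filter on low values, Sema3e was called higher (adjusted p = 0.00192, limma), at 0 in the WT-labelled libraries and 0.92, 1.11 and 0.94 in KO A, B and C, under the floor of 3 reads. The 19 tested and not called had means of 1.56 to 55.5 over the 6 libraries. Of the 35 genes, Epha8, Epha10, Sema3a and Sema3e stayed at or below a mean of 1 normalised read, and Epha6 was at 0 in all 6 libraries.

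**Figure D1:**
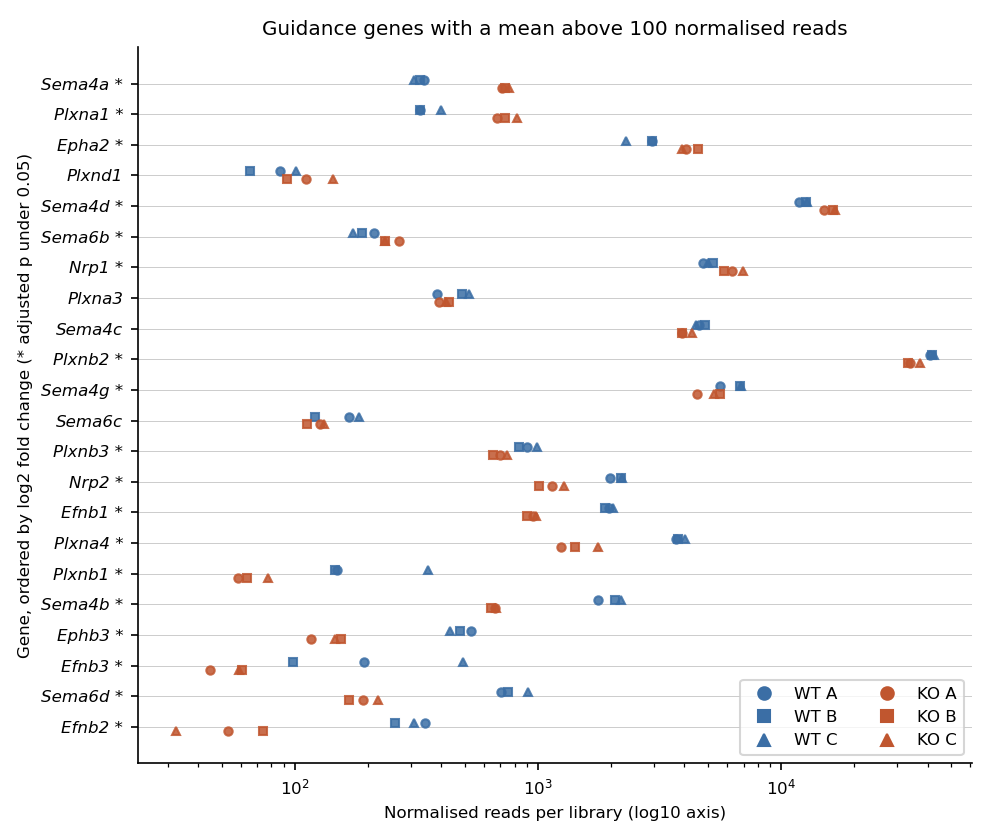
Normalised reads (log10 axis) of the 22 guidance genes with a mean above 100, one row per gene in order of log2 fold change; blue symbols are the WT-labelled libraries, orange the KO-labelled ones, and the shape gives the column letter. Sema4a and Plxna1 stand apart to the right in the KO-labelled libraries, Efnb2, Sema6d, Ephb3 and Sema4b to the left, and WT C lies far from the other WT-labelled libraries for Efnb3 and Plxnb1.

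**Figure D2:**
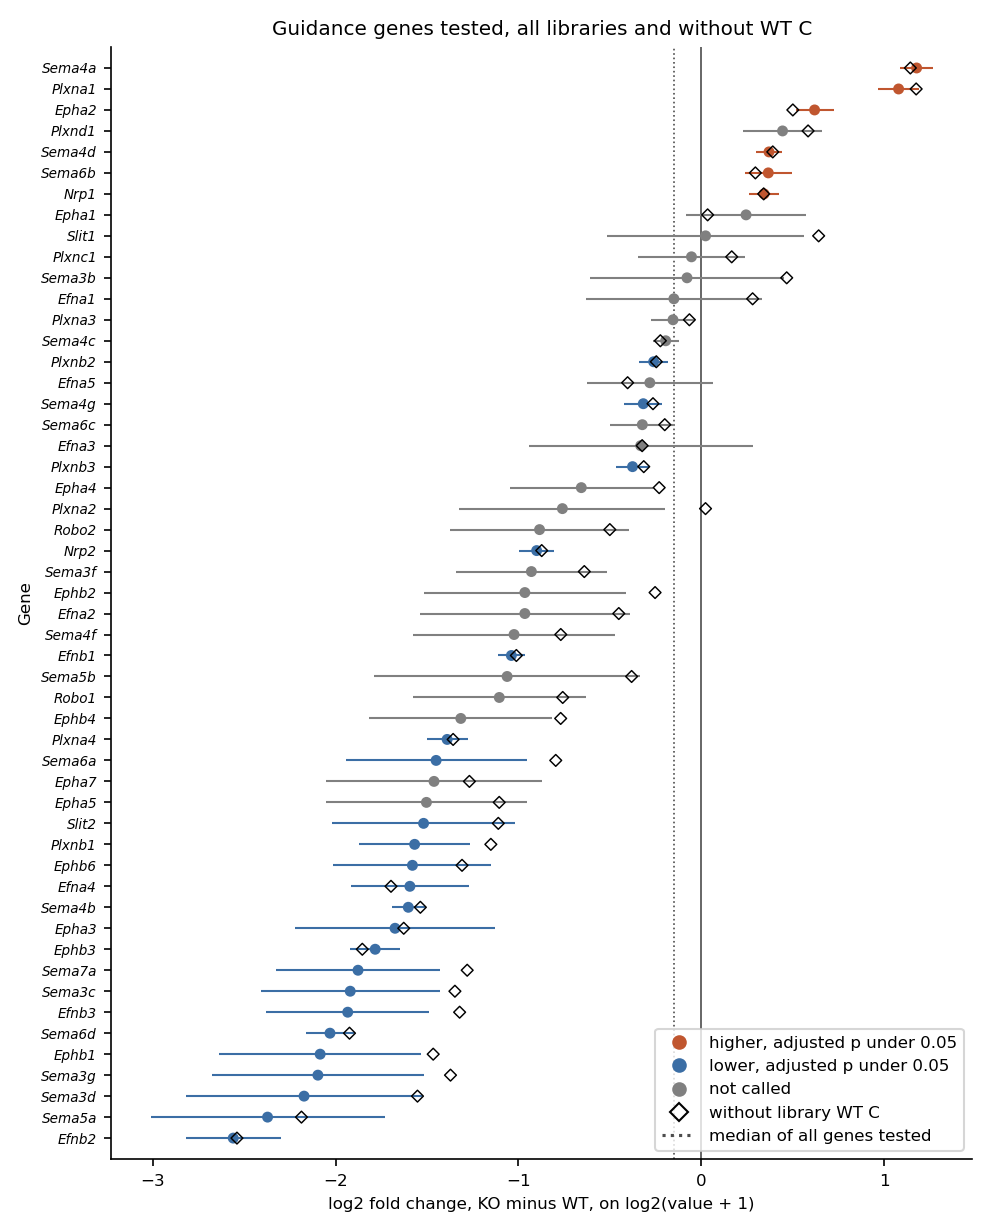
Log2 fold change of the 52 tested guidance genes, KO minus WT, with bars of 1 SE; colour marks the call and open diamonds the value without library WT C. The 6 higher genes run from 0.34 to 1.18, the lower genes reach -2.56, and the diamonds move toward 0 mainly for genes with long bars.

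QKI binds RNA at the letters ACUAAY, where Y is a pyrimidine, and many of its known targets carry them in the 3' untranslated region (UTR). The letters ACTAAC or ACTAAT were therefore searched on the transcript's own strand in the 3' UTR of the transcript that the table names for each gene (GENCODE M21, GRCm38). They occurred in 11 of the 22 lower guidance genes with a 3' UTR (50%), in 0 of the 6 higher ones and in 5 of the 22 not called. Of all tested protein-coding genes with a 3' UTR, 4730 of 13851 (34.1%) held them, 27.0% of the higher and 42.2% of the lower genes. Length moves with this count: the median 3' UTR was 1870.5 bases in the lower and 891 in the higher guidance genes, and 36.2% of all genes with a length in the range of the higher ones (549 to 3062 bases) held a match. In the length range of the lower guidance genes (205 to 6926 bases) 36.6% of all genes held one, and in that of the uncalled ones (281 to 7783 bases) 38.5%. These ranges took in 12269 and 11711 of the 13851 genes, so the shares are not corrected for length. Per kilobase of 3' UTR, the matches numbered 0.42 in the lower, 0.40 in the uncalled and 0 in the higher guidance genes. Over all tested genes they numbered 0.38 in the lower, 0.32 in the uncalled and 0.29 in the higher. Of the lower guidance genes with a match, Epha3, Sema3d, Sema5a, Sema6a and Slit2 were not called without WT C. Among the genes that fell, Plxna4, with 6221 bases, Sema4b and Ephb3 held none, while Plxnc1 held 3 and was not called. The stretches below show the match in capitals with its flanks, for 5 genes that were lower and for Plxnc1; they are 30 bases each, 5′ to 3′, with the position of the first capital letter in the 3' UTR.
Sema6d, chromosome 2, position 767: acaagcACTAACatcctcctacaccggtcc
Efnb2, chromosome 8, position 1415: atttttACTAATatatattttaagattaca
Nrp2, chromosome 1, position 2756: tcccggACTAACtggtccacagggccacag
Plxnb1, chromosome 9, position 1557: tttagtACTAATgatagttgtcttagttca
Sema7a, chromosome 9, position 1241: catattACTAATaaacaagctatttattta
Plxnc1, chromosome 10, position 397: ggggatACTAACaaagctcagagtgtggaa
Plxnc1, chromosome 10, position 572: ccaaaaACTAACagtgttgcaacattgttg
A second TAAC or TAAT within 20 bases, as in the 2-part form of the QKI motif, was found in Sema3d, Sema5a and Slit2, that is 3 of the 50 tested guidance genes with a 3' UTR (6%) against 8.51% of all. A match of letters is a description and shows no binding.

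**Figure D3:**
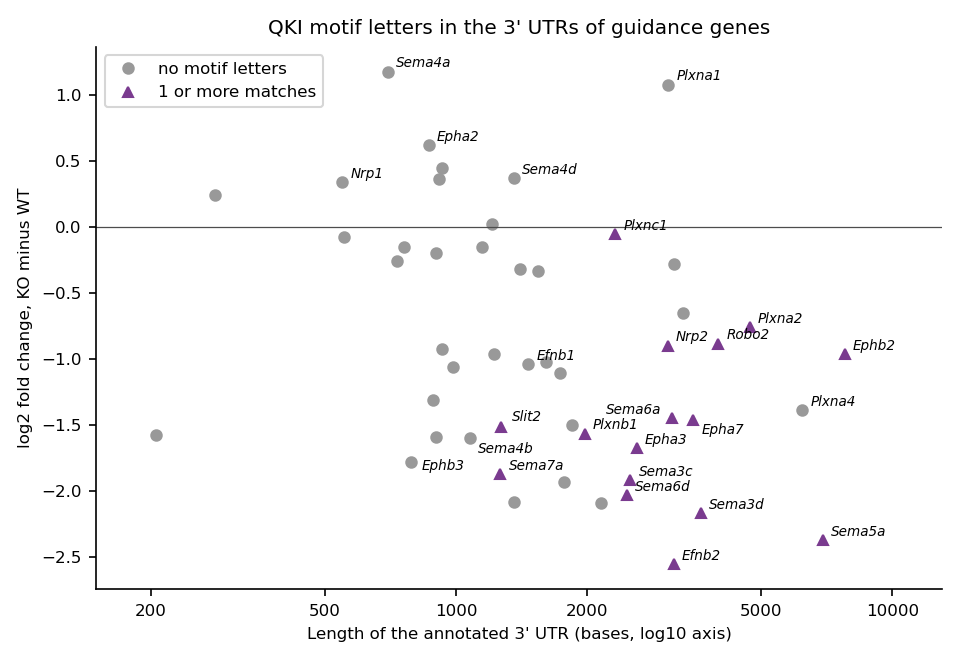
Log2 fold change of the tested guidance genes, KO minus WT, against the length of the annotated 3' UTR in bases (log10 axis); purple triangles hold ACTAAC or ACTAAT and grey circles do not. The 6 higher genes are circles, and the 16 triangles all lie at or below -0.05.

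Among the class 4 semaphorins, which span the membrane and act between immune cells, Sema4a rose and Sema4b fell. Sema4a encodes a ligand that costimulates T cells (chromosome 3, 88435962 to 88458884, minus strand, GRCm38). It had 337.8, 326.7 and 309.3 normalised reads in WT A, B and C and 713.2, 729.0 and 762.7 in KO A, B and C. All 3 KO-labelled libraries lay above all the WT-labelled ones, with little spread in either group. The means were 325 ± 14.4 and 735 ± 25.3 (SD, n = 3 each), a 2.26-fold rise and a log2 difference of 1.18 (SE 0.09, limma adjusted p = 4.31e-06).

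Sema4d, also known as CD100, is the ligand of plexin-B1 and plexin-B2 and, on immune cells, of CD72. It was the most abundant semaphorin in every library, at 11803, 12636 and 12748 normalised reads in WT A, B and C and 14992, 16396 and 16691 in KO A, B and C. The groups did not overlap, and the rise was smaller than that of Sema4a, 1.29-fold. Its log2 fold change was 0.37 (SE 0.07, limma adjusted p = 0.00297). The gene lies on the minus strand of chromosome 13, 51701250 to 51734763.

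Sema4b moved in the opposite direction. Its values were 1771, 2072 and 2197 normalised reads in WT A, B and C and 664.6, 640.9 and 674.1 in KO A, B and C. The KO-labelled libraries were close to each other and all far below the WT-labelled ones, 3.05-fold lower by the means, with a log2 difference of -1.60 (SE 0.09, limma adjusted p = 6.48e-07). Sema4b lies on the plus strand of chromosome 7, 80198441 to 80226411.

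Sema4c and Sema4g, both ligands of plexin-B2, differed less. Sema4g had 5588, 6756 and 6862 normalised reads in WT A, B and C and 4502, 5602 and 5307 in KO A, B and C. The groups overlapped, since KO B lay above WT A; the log2 fold change of -0.32 passed (limma adjusted p = 0.0351) and no longer passed with TMM factors (adjusted p = 0.203). Leaving out WT B, WT C, KO A or KO C also ended the call (adjusted p 0.0649 to 0.128). Sema4c had 4584, 4854 and 4441 normalised reads in WT A, B and C and 3919, 3908 and 4299 in KO A, B and C. All 3 KO-labelled libraries were lower, yet the log2 fold change of -0.20 did not pass (limma adjusted p = 0.0555); it passed with the column letter as a block (adjusted p = 0.0283). Exons of D430040D24Rik on the other strand share 334 bases with Sema4c, and the sources used here do not give whether reads were assigned by strand. D430040D24Rik was called lower, at 300 ± 28.0 and 201 ± 34.1 normalised reads in the WT-labelled and KO-labelled libraries. Sema4f, the sixth gene of the class in the table, had a mean of at most 2.43 normalised reads in either group.

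The class 6 semaphorins, membrane ligands of the A-type plexins, split as well. Sema6d had 707.1, 750.9 and 909.8 normalised reads in WT A, B and C and 190.6, 167.4 and 219.4 in KO A, B and C. Every KO-labelled library was far below every WT-labelled library, 4.10-fold by the means, and the log2 fold change was -2.03 (SE 0.13, limma adjusted p = 1.67e-06). Sema6d, a ligand of plexin-A1 (chromosome 2, 124610573 to 124667770, plus strand), thus fell while Plxna1 rose.

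Sema6b, a ligand of plexin-A4, went the other way, but close to the threshold. Its values were 211.7, 188.7 and 172.4 normalised reads in WT A, B and C and 268.0, 235.6 and 234.4 in KO A, B and C. The groups did not overlap, by a small margin, and the log2 fold change of 0.37 (SE 0.13) had an adjusted p of 0.0474 (limma). Without WT C it was 0.30 with an adjusted p of 0.137, and leaving out WT B or any 1 KO-labelled library also ended the call. Sema6c had 166.6, 120.6 and 183.3 normalised reads in WT A, B and C and 126.4, 112.5 and 131.7 in KO A, B and C. These ranges overlapped and the log2 fold change of -0.32 did not pass (limma adjusted p = 0.186).

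The proximal promoter of Sema6b held the letters GAAA, any 2 bases and GAAA again, the core of the element bound by interferon regulatory factors in interferon response genes. In the 300 bases around each RefSeq gene start (GRCm38.p6, 250 before and 50 after), both strands searched, 2 of the 45 tested guidance genes with an entry (4.44%) and 3.19% of all 11740 tested protein-coding genes held it. The other was Plxnc1, which was not called. For each gene the RefSeq start nearest to the start of its named transcript was used. It lay 43008 bases away for Sema6d, 4683 for Sema4d, 836 for Robo2 and 535 for Sema3c. For these genes the window did not cover the start of the named transcript. Both stretches that held the letters are shown because they are the only 2 found. The window on the gene's strand has the match in capitals.
Sema6b, chr17:56140470-56140499, minus strand, match starting 146 bases before the gene start: gggaggcagaGAAAGGGAAActgaggccaa
Plxnc1, chr10:94944944-94944973, minus strand, match starting 118 bases before the gene start: ttcacaatggGAAAGTGAAAcgcacaagcg

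The remaining semaphorins were present at low levels. Sema7a, a lipid-anchored ligand of plexin-C1 and of beta-1 integrins, had 70.9, 46.3 and 200.8 normalised reads in WT A, B and C and 18.8, 29.4 and 22.0 in KO A, B and C. The groups did not overlap, but WT C held 3.43 times the mean of WT A and WT B; the log2 fold change went from -1.88 (limma adjusted p = 0.00838) to -1.28 without WT C (adjusted p = 0.0125). Sema6a, a class 6 ligand of plexin-A2 and plexin-A4, fell from 56.0 ± 48.3 to 15.98 ± 4.28 normalised reads (SD, n = 3 each). WT C alone held 111.5 of it. Its call (limma adjusted p = 0.0434) ended without WT C (adjusted p = 0.112), without WT A or any 1 KO-labelled library (0.0506 to 0.131), with TMM factors (0.0675) and with a pseudocount of 5 (0.0516).

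Of the secreted class 3 semaphorins, Sema3c fell from 34.5 ± 26.4 to 6.95 ± 1.75 normalised reads and Sema3g from 26.5 ± 25.6 to 4.01 ± 1.41 (SD, n = 3 each). Without WT C the adjusted p-values were 0.031 and 0.041 (limma), and the call of Sema3g ended without KO C (adjusted p = 0.052). Sema3d was at 3.55, 0.89 and 9.65 in WT A, B and C and at 0 in all 3 KO-labelled libraries, at least 3.17-fold lower against the mean floor of 3 reads per library. Its call was lost without WT C (adjusted p = 0.0863), and without WT A or any 1 KO-labelled library (0.0518 to 0.0612). Sema5a, whose protein carries thrombospondin repeats, went from 15.0 ± 4.09 to 2.94 ± 2.82 and was also lost without WT C (adjusted p = 0.0535). Sema3b, Sema3f, Sema4f and Sema5b were tested and not called.

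Plexin-B2 dominated the plexins and changed least of those called. Plxnb2 had 40811, 41726 and 42531 normalised reads in WT A, B and C and 33909, 33198 and 37396 in KO A, B and C. The groups did not overlap, and the fall was 1.20-fold by the means, with a log2 difference of -0.26 (SE 0.08, limma adjusted p = 0.0245). That difference is near the shift of all genes, and with TMM factors it was -0.12 and did not pass (adjusted p = 0.249); without WT C the adjusted p was 0.0853, and without WT A, WT B, KO A or KO B it was 0.0501 to 0.0674. Plxnb2 lies on the minus strand of chromosome 15, 89155549 to 89180788.

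Plxna1 and Plxna4, 2 receptors of the class 6 semaphorins, moved in opposite directions. Plxna1, whose protein signals together with the Trem2 and Tyrobp adaptor complex in myeloid cells, had 328.2, 326.2 and 399.7 normalised reads in WT A, B and C and 676.6, 732.9 and 816.6 in KO A, B and C. All KO-labelled libraries lay above all WT-labelled ones, 2.11-fold by the means, with a log2 difference of 1.08 (SE 0.11, limma adjusted p = 4.54e-05). The antisense gene Gm26811 shares 970 exon bases with Plxna1 and was higher too, at 51.8 ± 6.08 and 118 ± 30.7; without knowledge of the strand used in counting, reads of the shared bases cannot be told apart.

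Plxna4 was the second most abundant plexin by normalised reads in the WT-labelled libraries. It had 3707, 3774 and 4003 normalised reads in WT A, B and C and 1243, 1418 and 1763 in KO A, B and C. The gap between the groups was wide, 2.60-fold by the means, and the log2 fold change was -1.39 (SE 0.11, limma adjusted p = 7.31e-06). The antisense gene Plxna4os3, which shares 110 exon bases with it, was lower as well, at 25.0 ± 2.43 and 10.2 ± 3.78. Plxna1 and Plxna4 are both read from the minus strand of chromosome 6, Plxna1 from 89316314 to 89362620 and Plxna4 from 32144268 to 32588192.

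The other B-type plexins were lower. Plxnb3 had 900.5, 835.0 and 985.2 normalised reads in WT A, B and C and 695.8, 652.5 and 745.3 in KO A, B and C. The groups did not overlap, and the log2 fold change of -0.38 (limma adjusted p = 0.00976) was -0.24 with TMM factors (adjusted p = 0.048). Plxnb1, the high-affinity receptor of Sema4d, had 149.4, 146.0 and 352.7 in WT A, B and C and 58.2, 63.8 and 77.3 in KO A, B and C. The groups were separate, and WT C held 2.39 times the mean of WT A and WT B. The log2 fold change was -1.57 (limma adjusted p = 0.00258) and -1.15 without WT C (adjusted p = 0.00194). Exons of Gm7628 on the other strand share 257 bases with Plxnb1. Gm7628 had means of 2.90 and 0.84 normalised reads in the WT-labelled and KO-labelled libraries.

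The remaining plexins did not pass. Plxna3 had 384.4, 484.7 and 520.3 normalised reads in WT A, B and C and 392.1, 428.6 and 417.7 in KO A, B and C, which overlapped (log2 fold change -0.16, limma adjusted p = 0.358). Plxnd1, the receptor of Sema3e, had 87.1, 65.4 and 101.3 in WT A, B and C and 110.9, 92.6 and 143.0 in KO A, B and C. Its groups overlapped, and the log2 fold change of 0.44 (limma adjusted p = 0.142) passed with the column letter as a block (adjusted p = 0.0358) and with DESeq2 (adjusted p = 0.0312). Plxnc1 and Plxna2 had means of 57.4 ± 19.9 and 40.6 ± 41.6 normalised reads in the WT-labelled libraries and 53.7 ± 12.4 and 17.3 ± 4.58 in the KO-labelled ones.

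The neuropilins, co-receptors for secreted semaphorins and for vascular endothelial growth factor, parted. Nrp1, which binds Sema3a, had 4780, 5238 and 4984 normalised reads in WT A, B and C and 6301, 5790 and 6976 in KO A, B and C. All KO-labelled libraries were higher, 1.27-fold by the means (log2 fold change 0.34, SE 0.08, limma adjusted p = 0.00806). Nrp2, which binds Sema3f, had 1977, 2198 and 2208 in WT A, B and C and 1141, 1010 and 1279 in KO A, B and C. All KO-labelled libraries were lower, 1.86-fold by the means (log2 fold change -0.90, SE 0.10, limma adjusted p = 4.9e-05). Nrp1 lies on the plus strand of chromosome 8, 128359284 to 128503363, and Nrp2 on the plus strand of chromosome 1, 62703285 to 62818695.

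Levels per kilobase of transcript, which allow genes to be compared with each other, show how the make-up of these families differed. The semaphorins summed to 6396 ± 364 (WT-labelled) and 6425 ± 362 (KO-labelled) normalised reads per kilobase (SD, n = 3 each). With the deposited scaling the summed level was thus alike to within the spread. Within that sum the share of Sema4d went from 44.2% to 56.9%, that of Sema4a from 1.67% to 3.75% and that of Sema4b from 8.42% to 2.76%. Sema4d stood at 5.27 ± 0.374 times the level of Sema4b per kilobase in the WT-labelled libraries and at 20.7 ± 1.33 times in the KO-labelled ones. The plexin sum was 7094 ± 185 and 5829 ± 386 per kilobase, of which Plxnb2 made 91.5% and 93.1%. Plxna4 stood at 7.67 ± 0.58 times the level of Plxna1 in the WT-labelled libraries and at 1.38 ± 0.116 times in the KO-labelled ones. For Nrp1 over Nrp2 the ratio was 4.42 ± 0.159 and 10.5 ± 0.274. These 3 ratios were chosen after the values were seen and are given as levels, without a test. A ratio or share within a library does not depend on its scaling, but the sums do. The TMM factors, by which values are divided, were 1.03 to 1.087 in the WT-labelled libraries and 0.9432 to 0.9728 in the KO-labelled ones. They would thus raise the KO-labelled sums relative to the WT-labelled ones.

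**Figure D4:**
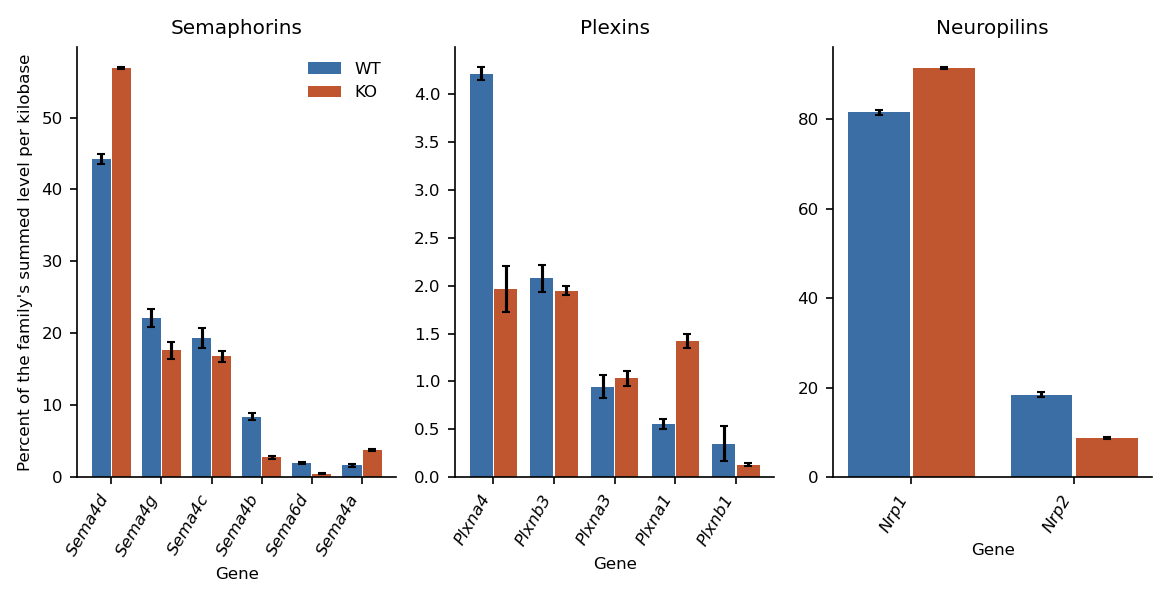
Share of each family's summed level per kilobase (percent, mean with SD, n = 3 libraries per group) for 6 semaphorins, for 5 plexins other than Plxnb2, which held over 90% in both groups, and for both neuropilins. Sema4d, Sema4a, Plxna1 and Nrp1 take a larger share in the KO-labelled libraries, and Sema4b, Plxna4 and Nrp2 a smaller one.

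All 3 ephrin-B ligands, which span the membrane and can signal into the cell that bears them, fell. Efnb2, the ligand of EphB4, had 341.9, 258.2 and 309.9 normalised reads in WT A, B and C and 53.1, 73.7 and 32.3 in KO A, B and C. No KO-labelled library came near the WT-labelled ones, and the means differed 5.72-fold, the widest gap of the 22 guidance genes with a mean above 100 (log2 fold change -2.56, SE 0.26, limma adjusted p = 3.55e-05). Efnb1 was the most abundant ephrin, at 1948, 1876 and 2024 in WT A, B and C and 957.3, 903.7 and 984.4 in KO A, B and C. Spread was small in both groups, which differed 2.06-fold (log2 fold change -1.04, SE 0.07, limma adjusted p = 2.77e-06). The genes lie on chromosome 8, 8617434 to 8661242, minus strand, and chromosome X, 99136130 to 99148991, plus strand.

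Efnb3 varied most among the WT-labelled libraries, with 191.5, 98.4 and 492.6 normalised reads in WT A, B and C and 44.9, 60.4 and 59.1 in KO A, B and C. WT C held 3.40 times the mean of WT A and WT B, and the groups did not overlap. The log2 fold change was -1.93 (SE 0.45, limma adjusted p = 0.00708) and -1.32 without WT C (adjusted p = 0.00812). The 5 ephrin-A ligands, which are held to the membrane by a lipid anchor, summed to 41.3 ± 9.83 normalised reads per kilobase in the WT-labelled libraries, against 746 ± 91.1 for the ephrin-B ligands. Efna4 alone was called, at 54.2, 33.8 and 34.4 in WT A, B and C and 14.7, 8.87 and 15.0 in KO A, B and C. WT C was not its highest library, and the log2 fold change of -1.59 (limma adjusted p = 0.00343) was -1.70 without it. Efna4 shares 168 exon bases with the antisense gene 4731419I09Rik. That gene was far more abundant, at 4568 ± 163 and 4445 ± 287 normalised reads in the WT-labelled and KO-labelled libraries, and was not called.

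The Eph receptors were dominated by 1 gene of each type, and these moved in opposite directions. Epha2, a receptor of ephrin-A1 that is also known from epithelia and tumour cells, had 2940, 2938 and 2295 normalised reads in WT A, B and C and 4073, 4533 and 3892 in KO A, B and C. All KO-labelled libraries were higher, 1.53-fold by the means (log2 fold change 0.62, SE 0.10, limma adjusted p = 0.00112). It made 98.3% of the summed EphA level per kilobase in the WT-labelled libraries and 99.1% in the KO-labelled ones. Ephb3, a receptor of the ephrin-B ligands, had 530.3, 478.0 and 434.7 in WT A, B and C and 116.8, 155.2 and 146.7 in KO A, B and C. Every KO-labelled library was far lower, 3.45-fold by the means (log2 fold change -1.78, SE 0.14, limma adjusted p = 5.18e-06). It made 85.1% and 86.8% of the summed EphB level. Epha2 lies on the plus strand of chromosome 4, 141301240 to 141329384, and Ephb3 on the plus strand of chromosome 16, 21204755 to 21223304.

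The summed EphA level was thus 714 ± 94.1 and 1083 ± 87.3 normalised reads per kilobase in the WT-labelled and KO-labelled libraries, and the summed EphB level 136 ± 10.2 and 38.6 ± 4.45 (SD, n = 3 each). Of the lesser receptors, Ephb1 fell from 47.8 ± 38.8 to 8.89 ± 3.87 normalised reads and Ephb6, which lacks kinase activity, from 19.7 ± 8.63 to 5.63 ± 1.81. WT C held 91.7 of Ephb1, and without it the adjusted p was 0.0444 for Ephb1 and 0.0596 for Ephb6 (limma). Without KO B it was 0.0581 for Ephb1 and 0.0586 for Ephb6, and without WT A 0.0581 for Ephb6, so these calls ended there. Exons of Gm26846 on the other strand share 152 bases with Ephb1. Epha3 was at 4.05, 0.89 and 2.41 in WT A, B and C and at 0 in the KO-labelled libraries, at least 1.65-fold lower against the floor of 3 reads, and its call was lost without WT C (adjusted p = 0.0795), and without WT A or any 1 KO-labelled library (0.0758 to 0.132). Ephb2, Ephb4, Epha1, Epha4, Epha5 and Epha7 were tested and not called; Ephb4 had an adjusted p of 0.0647 and passed with the column letter as a block (adjusted p = 0.0391).

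Slits and Robos were close to the detection limit. Slit2 had 3.04, 3.56 and 9.04 normalised reads in WT A, B and C and 0.92, 1.11 and 0.94 in KO A, B and C, under the floor of 3 reads (1.34 to 1.81 by library) in the latter. It was called lower (limma adjusted p = 0.0371), and not without WT C (adjusted p = 0.122), without WT B or any 1 KO-labelled library (0.0557 to 0.0866) or with edgeR (adjusted p = 0.0528). Slit1, Robo1 and Robo2 had means of 7.67 to 10.9 in the WT-labelled libraries and 3.54 to 7.42 in the KO-labelled ones, and none of them passed with limma.

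The low-level guidance genes stood apart from the abundant ones in library WT C. Over the 30 tested genes with a mean of 100 or less, the median ratio of WT C to the mean of WT A and WT B was 2.67; WT C was the highest WT-labelled library for 24 of them, and the ratio was above 2 for 19. Over the 22 abundant genes the median ratio was 1.06, and the ratio was above 2 for 2, Efnb3 and Plxnb1. Markers of most other cells were also highest in WT C, relative to WT A and WT B. The ratio of the summed markers was 4.64 for neutrophils, 2.94 for oligodendrocyte precursors, 2.57 for pericytes and fibroblasts, 2.32 for oligodendrocytes, 1.998 for monocytes, 1.66 for endothelial cells, 1.41 for neurons and 1.34 for astrocytes. It was near 1 for microglia (0.964) and border-associated macrophages (0.934). For lymphocytes it was 1.06, but only 4 of the 12 markers had a mean above 1 normalised read. The most abundant of these, at a mean of 764.6, made up most of the sum, and the median ratio of the 4 was 0.71.

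These lists also differed between the groups. The 8 markers of oligodendrocyte precursors summed to 558.1 to 1818 normalised reads in the WT-labelled libraries and 194.2 to 324.9 in the KO-labelled ones, and 6 of the 8 were lower. Endothelial markers summed to 2309 to 3942 and 880.8 to 1028 (7 of 10 lower), pericyte and fibroblast markers to 1469 to 4268 and 829.5 to 1026 (8 of 10 lower), and oligodendrocyte markers to 8124 to 21655 and 5528 to 6384 (6 of 10 lower). Neutrophil markers summed to 1890 to 16759 and 55.4 to 118.1, with 7 of 8 tested lower, neuronal markers to 384.6 to 569.8 and 170.8 to 198.3 (11 of 12 lower) and astrocyte markers to 6465 to 9578 and 2961 to 3845 (9 of 10 lower). Monocyte markers summed to 505.6 to 1560 and 670.8 to 912.4, with 1 of 8 higher and 3 lower. Lymphocyte markers summed to 869.1 to 944.2 and 532.8 to 753.7, with 2 of the 4 tested lower and Cd8a at 0 in all libraries. Markers of border-associated macrophages summed to more in the KO-labelled libraries, 1976 to 3378 against 1055 to 1531, with 5 of 8 higher. The groups did not overlap for 3 of these 8. Of all genes tested, 11.3% were called higher and 23.4% lower. Without WT C these shares were 10% and 17.2%, and 3 of the 8 border-associated macrophage markers were higher. Lower markers then numbered 9 for neurons, 7 for astrocytes and 6 for neutrophils. The endothelial, oligodendrocyte precursor and pericyte lists each held 5 lower genes. Calls for oligodendrocytes, monocytes and lymphocytes kept their numbers. The part of all these cell types in the levels of the guidance genes was not tested.

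Without WT C, 5 guidance genes were higher and 15 lower, where 10% and 17.2% of all genes were called. Among the 22 abundant genes the counts were then 5 and 10, with 13.8% and 25.4% of all genes at that level. The 3 abundant genes whose calls ended were Sema6b, Plxnb2 and Sema4g. Of the 11 low-level genes called lower, 5 were called without WT C: Sema7a, Ephb1, Efna4, Sema3c and Sema3g.

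**Figure D5:**
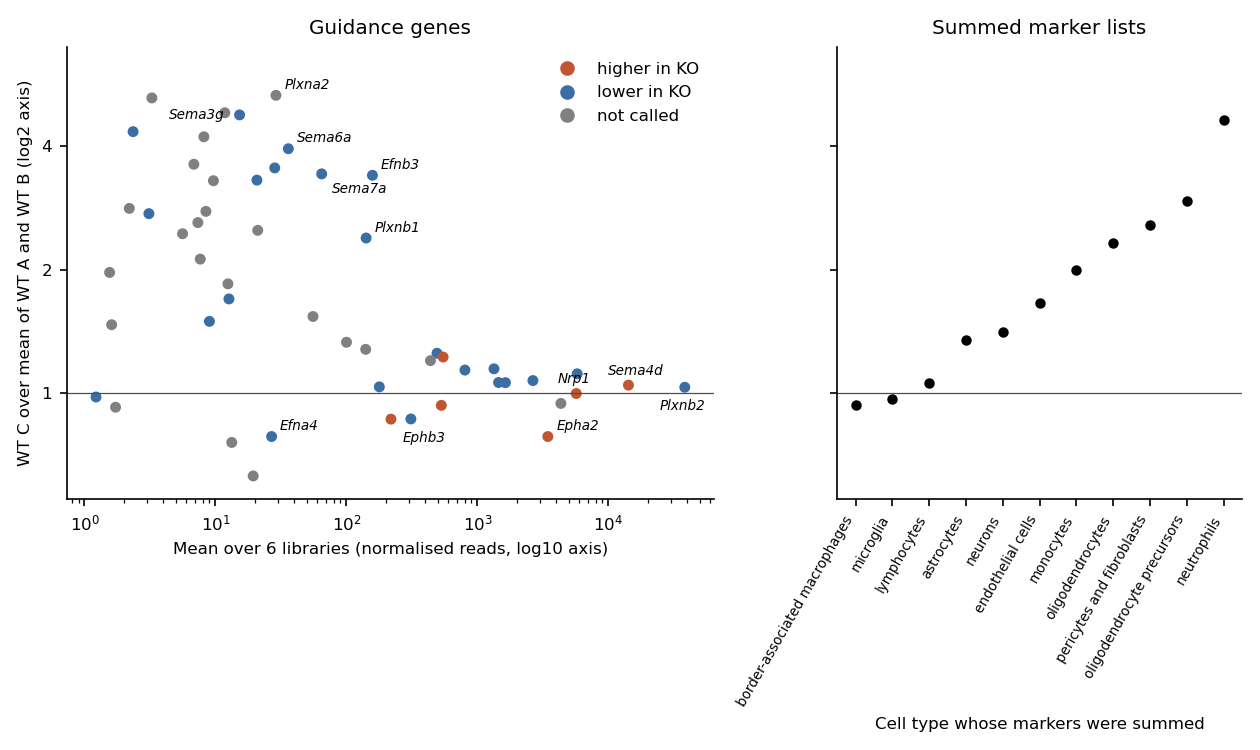
Left, the value of library WT C over the mean of WT A and WT B (log2 axis) against the mean over 6 libraries (normalised reads, log10 axis) for the tested guidance genes, coloured by call; right, the same ratio for the summed markers of 11 cell types. Genes above 100 normalised reads lie near 1 apart from Efnb3 and Plxnb1, while most genes below that level lie above 2, as do the summed neutrophil, oligodendrocyte precursor, pericyte and oligodendrocyte markers.

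The genes that guidance receptors act with were examined through 5 lists of 90 genes, of which 85 were tested. They gave 10 higher and 32 lower genes, at a median log2 difference of -0.27, where 11.3% and 23.4% of all genes tested were called higher and lower. The number of higher genes depended on scaling and was 17 with TMM factors, with 24 lower, where 15.4% of all genes were called in each direction. The counts of each list below are to be read against the same shares. Without WT C the shares of all genes were 10% higher and 17.2% lower. Of all genes with a mean above 100 normalised reads 47.8% were called by limma, and of those at 100 or less 20.6%. The partner genes were not split by level. In the list of semaphorin and plexin signalling, 12 of 24 tested genes were lower and 3 higher. TMM factors gave 9 lower and 5 higher, and without WT C 10 were lower and 3 higher. Mical3, a flavoenzyme of the Mical family, stood at 1410 ± 32.1 and 544 ± 43.5 normalised reads (SD over 3 libraries), 2.59-fold lower (limma adjusted p = 1.08e-06). Mras, a Ras-family GTPase, fell from 1950 ± 195 to 941 ± 40.5, and Farp1, an exchange factor in A-type plexin signalling, from 606 ± 76.4 to 297 ± 25.2.

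Among co-receptors and alternative receptors, 3 of 12 were higher and 3 lower. TMM factors gave 4 higher and 1 lower, and without WT C 4 were higher and 2 lower. Cd72, a C-type lectin-like receptor of Sema4d on immune cells, had 1627, 1570 and 1506 normalised reads in WT A, B and C and 3008, 2970 and 2988 in KO A, B and C. The groups were far apart, 1.91-fold by the means (log2 fold change 0.93, limma adjusted p = 3e-06). Tyrobp, the adaptor that couples Trem2 and plexin-A1 to kinases, was 1.32-fold higher and Itgb1, the beta-1 integrin bound by Sema7a, 1.29-fold lower; the latter did not pass with TMM factors (adjusted p = 0.0742). Met, the hepatocyte growth factor receptor that associates with B-type plexins, had 10.6, 13.8 and 11.5 normalised reads in WT A, B and C and 170.8, 104.8 and 151.9 in KO A, B and C. Its groups were far apart (log2 fold change 3.45, limma adjusted p = 3.36e-06); it was chosen after its values were seen.

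In ephrin and Eph signalling, 5 of 22 genes were lower and 3 higher, a share near that of all genes tested (34.6%). TMM factors gave 5 in each direction, and without WT C 4 were lower and 3 higher. Sipa1l1, a GTPase-activating protein for Rap that binds EphA4, fell from 3676 ± 209 to 1696 ± 173 normalised reads, Abl1, a tyrosine kinase, from 13076 ± 1024 to 8513 ± 603, and Chn2, a Rac-directed chimaerin, from 2596 ± 120 to 1782 ± 160. Of the other guidance cues and receptors 7 of 17 were lower and 1 higher, and without WT C, whose median ratio over this list was 2.17, 5 were lower and 1 higher. The netrin receptor gene Unc5b fell from 170 ± 135 to 30.1 ± 8.12, with 326.2 in WT C, and its log2 fold change went from -2.22 to -1.61 without that library. Its relative Unc5a rose from 126 ± 5.55 to 236 ± 11.6, and Rgmb, a ligand of neogenin and bone morphogenetic protein co-receptor, fell from 3644 ± 91.6 to 2391 ± 243. In Slit and Robo signalling 5 of 10 were lower and 0 higher with limma (1 higher at an unadjusted p under 0.05). TMM factors gave 2 lower and 2 higher, and without WT C 2 were lower and 0 higher. Srgap3, a GTPase-activating protein bound by Robo1, was 1.49-fold lower, and Evl, an actin-elongation factor, 1.22-fold lower, the latter not passing with TMM factors (adjusted p = 0.11).

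In the authors' deposited table, 23 guidance genes had an adjusted p under 0.05, 6 higher and 17 lower, and all 23 were called here in the same direction. The share of all genes under that threshold in their table is not given here. The other 6 genes called here, Epha3, Plxnb2, Plxnb3, Sema3d, Sema4g and Slit2, were not below that threshold in the authors' deposited table.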

How the data were processed

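The submitters' processing notes name DESeq2 1.26.0, HOMER 4.11.1, STAR 2.7.1a and Trimmomatic 0.39, without roles or order, and the build mm10/GRCm38; the sources used here do not give whether strand was used. The deposited signal is reads that the authors scaled to sums of 34360040 to 34360054 per library. In each library 100% of values lay within 0.1 of a whole number of reads, so whole reads were recovered for the alternatives; 3 reads are worth 1.34 to 1.81. The deposited table also gives log2 fold changes and adjusted p-values that the authors computed.

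Columns named Control were taken as WT and those named Treatment as KO from the group names; the letters A, B and C match no number in the labels. Deviations from the group means correlated between equal letters at 0.61, 0.20 and 0.30 (A, B, C) over 11588 genes, and equal letters were taken as pairs in an alternative fit.

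One row per symbol was kept (117 rows left out). Genes with a mean above 1 entered a two-sided limma-trend test (limma 3.58.1 under R 4.3.3) of log2(value + 1), and p-values were adjusted over all genes by the Benjamini-Hochberg method. Folds are ratios of group means; log2 fold changes on that scale understate low genes. Alternatives were pseudocounts of 0.1 and 5, other filters, TMM factors, edgeR 4.0.16 and DESeq2 1.42.0 on recovered reads, the block, each library left out and a threshold of 0.01; counts above a mean of 100 were added after seeing the data. The limma and edgeR steps were tested on simulated data. Guidance genes with a mean above 100 are given per library; lower ones by group if called. Of each partner list, up to 3 called genes with the largest difference and a mean above 100 are named. The members and lists were chosen with earlier results of these data known. All 57 genes matched a GENCODE M21 transcript, 54 had a 3' UTR and 50 a RefSeq promoter.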

Additional observations from a re-analysis of the deposited data

How the results depend on the processing

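Of the 29 guidance genes called, 0 changed direction under any setting tried. Those called under every setting were 10: Efnb1, Efnb2, Ephb3, Nrp2, Plxna1, Plxna4, Sema4a, Sema4b, Sema4d and Sema6d. Leaving aside the setting with no filter on low values and the threshold of 0.01, 18 were called under every setting. Among these 18, Sema3c did not pass the threshold of 0.01 (limma adjusted p = 0.0118). With no filter, 3851 genes were called in all, 4 guidance genes were higher and 7 lower (3 and 7 among those with a mean above 100; the fourth is Sema3e), and 6 partner genes were higher and 12 lower; the cause was not tested. At an adjusted p of 0.01, 4710 genes were called, 12 guidance genes were lower, and 6 partner genes were higher and 18 lower. Higher partner genes were 17 with TMM factors, 17 with edgeR and 18 with DESeq2, against 10; these factors raise the KO-labelled libraries relative to the deposited scaling. With each library left out in turn, 6113 to 6732 genes were called, 5 to 6 guidance genes were higher and 15 to 23 lower, the fewest without WT C, and 8 to 11 partner genes were higher and 23 to 31 lower; among abundant guidance genes 5 to 6 were higher and 10 to 12 lower.

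The column letter as a replicate block gave 7 higher and 25 lower guidance genes, adding Plxnd1, Sema4c and Ephb4, and changed no other call of a guidance gene. Genes that changed sign were all uncalled. Plxnc1 went to 0.081 with TMM factors, 0.056 with edgeR and 0.061 with DESeq2, and with single libraries left out it ran from -0.36 to 0.17. Sema3b went to 0.041 with TMM factors and ran from -0.42 to 0.47 with libraries left out. Over the same fits Efna1 ran from -0.57 to 0.28, Efna3 from -0.71 to 0.24 and Plxna2 from -1.18 to 0.023. Slit1 went to -0.032 with a pseudocount of 5, -0.075 with edgeR and -0.083 with DESeq2, and ran from -0.32 to 0.64. With 3 reads worth up to 1.81 normalised reads, differences of Slit2, Sema3d and Epha3 rest on few reads.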
